A study of Vitis vinifera with 27 samples.

Results

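The 10 Nudix hydrolase genes with the highest mean expression in ripening Muscat berries are described here. A gene counted as a Nudix hydrolase when its leading protein annotation names one, and 20 of the 27096 genes listed in any library did. The 10 were chosen by their mean FPKM over the 27 libraries, a read level corrected for the length of the transcript and the size of the library. These means are given as a description. The rule uses no test between stages or cultivars, but it was set with earlier results of these data known. A mean can also be carried by a few groups, as for LOC100259630, whose median was 2.68 FPKM.

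The berries came from 3 table grape cultivars with a Muscat flavour, Xiangfei, Italia and Zaomeiguixiang (Vitis vinifera, the cultivated grapevine), grown under a plastic cover in 1 vineyard and harvested in 1 season. The stages were EL35, when berries start to soften and colour, EL36, when veraison is complete and sugar is intermediate, and EL38, harvest ripeness. Stages were not matched in sugar between cultivars. In the paper's measurements, Italia berries at EL36 had less soluble solids than those of Xiangfei and Zaomeiguixiang at EL35. Comparisons of cultivars are therefore also comparisons of sugar level, and its part was not tested. Each of the 9 combinations has 3 replicates, each of berries picked at random from 3 vines, so the p-values measure the spread between such collections. The question put by the design is how each gene's expression differs between stages and between cultivars.

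Nudix hydrolases cleave a nucleoside diphosphate linked to another group, the X of the family's name, and share a conserved sequence, the Nudix box, that holds the catalytic site. Plants have many such enzymes in the cytosol, plastids and mitochondria, and their substrates include coenzyme A, NADH and NADPH, ADP-ribose, ADP-sugars, dinucleoside polyphosphates, diphosphoinositol polyphosphates and damaged nucleotides. In rose petals a cytosolic member, NUDX1, cleaves geranyl diphosphate on the way to the scent compound geraniol, which is also a main aroma compound of Muscat grapes. The roles given below are those of the Arabidopsis enzymes of the same number or of the orthology terms in the files, and none was measured in these berries.

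Library totals were between 16908559 and 27186952 expected counts. Libraries stood apart in 2 ways before any comparison. The summed FPKM of 22 seed storage and oil body genes was 49466 in Italia EL35 replicate 3, 16474 in Zaomeiguixiang EL35 replicate 3 and 1978 in Xiangfei EL38 replicate 3, against 125 to 460.5 in the other 24 libraries. In Italia EL35 replicate 3 the 56 ripening berry markers summed to 27470 FPKM, against 1220 and 2422 in the rest of its group. Other groups of EL35 were also uneven. Zaomeiguixiang EL35 replicate 2 was at 37560 FPKM against 7881 and 9562, and Xiangfei EL35 replicate 2 at 28414 against 6712 and 15762. The level of long genes (at least 2500 bases) against short genes (at most 1000 bases), taken as the difference of their median deviations on the log2(FPKM + 1) scale, was lowest in Xiangfei EL36 replicate 3 (-1.52), Xiangfei EL38 replicate 1 (-1.28) and Zaomeiguixiang EL35 replicate 1 (-1.13), and reached 0.59 elsewhere. Counts of calls are therefore also given without the first 3 and without the last 3 of these libraries, 2 settings added after seeing the data.

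**Figure D1:**
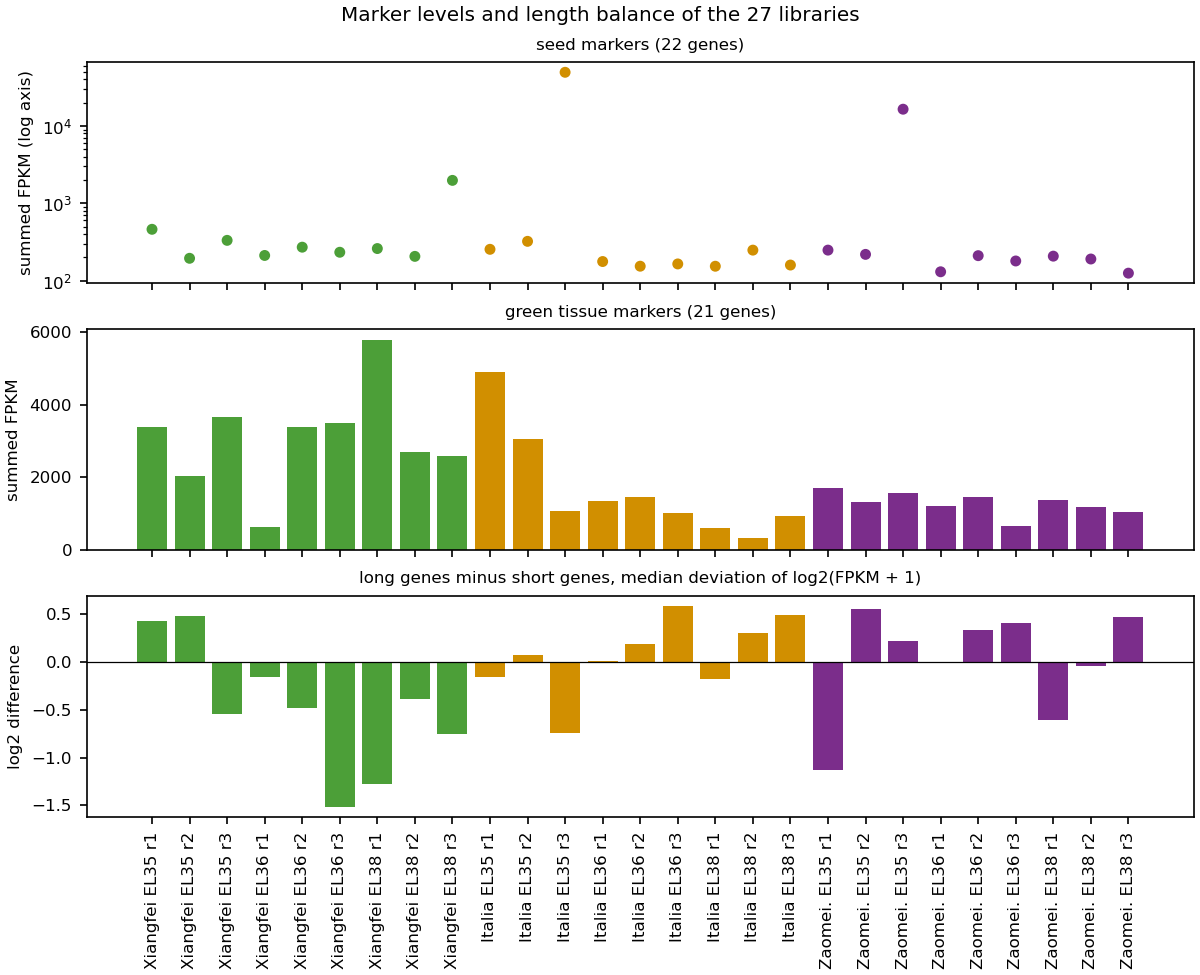
Each of the 27 libraries is plotted by the summed FPKM of 22 seed markers (top, log axis), the summed FPKM of 21 green tissue markers (middle) and the median deviation of long genes minus that of short genes on the log2(FPKM + 1) scale (bottom), coloured by cultivar. The seed markers are at 1978 to 49466 FPKM in 3 libraries and at most 460.5 in the other 24, and the length balance is lowest in Xiangfei EL36 replicate 3 at -1.52.

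LOC100241801, annotated as the mitochondrial Nudix hydrolase 15, had the highest mean of the family at 33.8 FPKM. It was followed by LOC100254156 (Nudix 18, 23.4 FPKM), LOC100241091 (Nudix 14, 21.1), LOC100259453 (Nudix 19, 20.6) and LOC100247306 (Nudix 25, 20.0). The second group of 5 consisted of LOC100243843 (Nudix 13, 12.5 FPKM), LOC100241564 (Nudix 3, 12.2), LOC100256580 (Nudix 10, 11.2), LOC100263857 (Nudix 9, 9.23) and LOC100259630 (Nudix 2, 7.04). The last place was close. LOC100257937, annotated as Nudix 2-like, had a mean of 7.02 FPKM just outside the limit, and LOC100262298, a second Nudix 15 gene, had 4.03. Ranked by the median over libraries instead, 9 of the 10 stayed, and LOC100257937 took the place of LOC100259630, whose median was 2.68 FPKM.

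**Figure D2:**
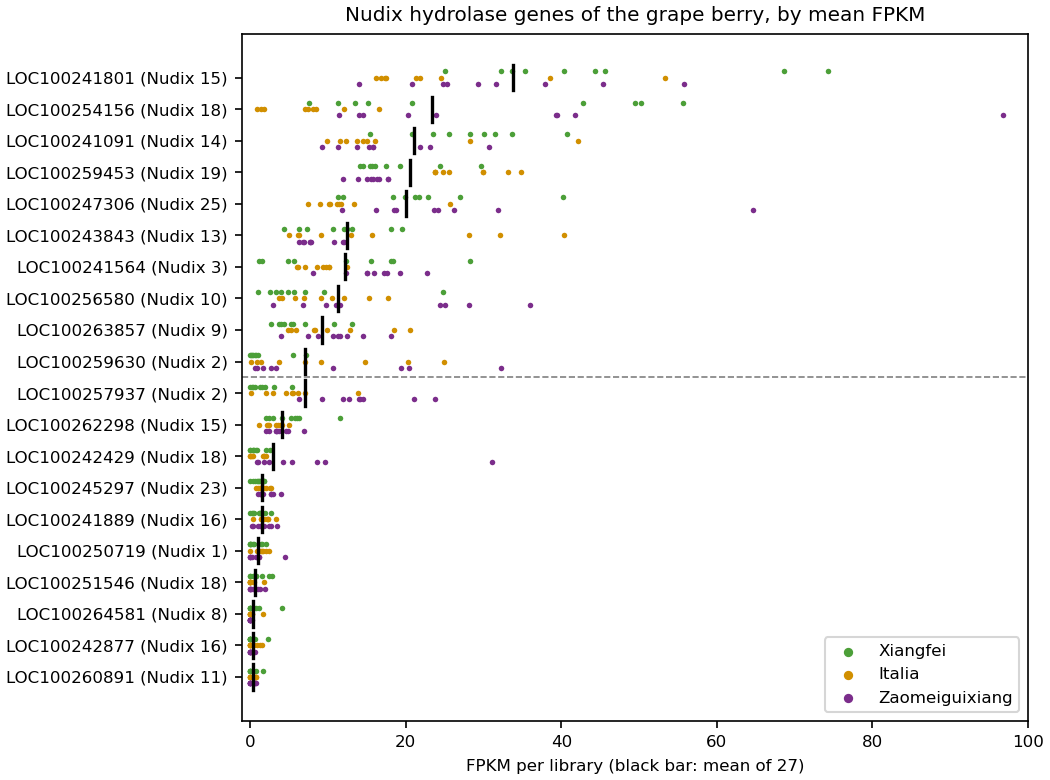
FPKM of the 20 Nudix hydrolase genes in each of 27 libraries (points, coloured by cultivar) with the mean over libraries (black bar), ordered by that mean. The means run from 33.8 FPKM for LOC100241801 to 0.30 for LOC100260891, and the dashed line separates the 10 kept genes from the rest, with 7.04 FPKM above it and 7.02 below.

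The 10 genes together held a median of 90.9% of the summed FPKM of all 20 (range 77.2% to 96.6% over libraries). Their sum ranged from 108 FPKM in Zaomeiguixiang EL36 replicate 1 to 331 in Zaomeiguixiang EL35 replicate 1. LOC100241801 was the highest of the 10 in 12 libraries, LOC100254156 in 9, LOC100259453 in 3, LOC100243843 in 2 and LOC100241091 in 1. All 10 were well above the detection floor of 3 counts on average, with mean expected counts from 192 for LOC100259630 to 766 for LOC100259453. LOC100259630 was the only one listed at 0 in any library, 1 of the 27. The 9 group means of a gene were separated by 2.25-fold from lowest to highest for LOC100259453 and by 33.4-fold for LOC100259630. Ordering the groups by mean, neighbouring groups overlapped in all 8 steps for 8 genes and in 7 of 8 for LOC100243843 and LOC100263857. This is a description, and the overlap over all genes was not counted.

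**Figure D3:**
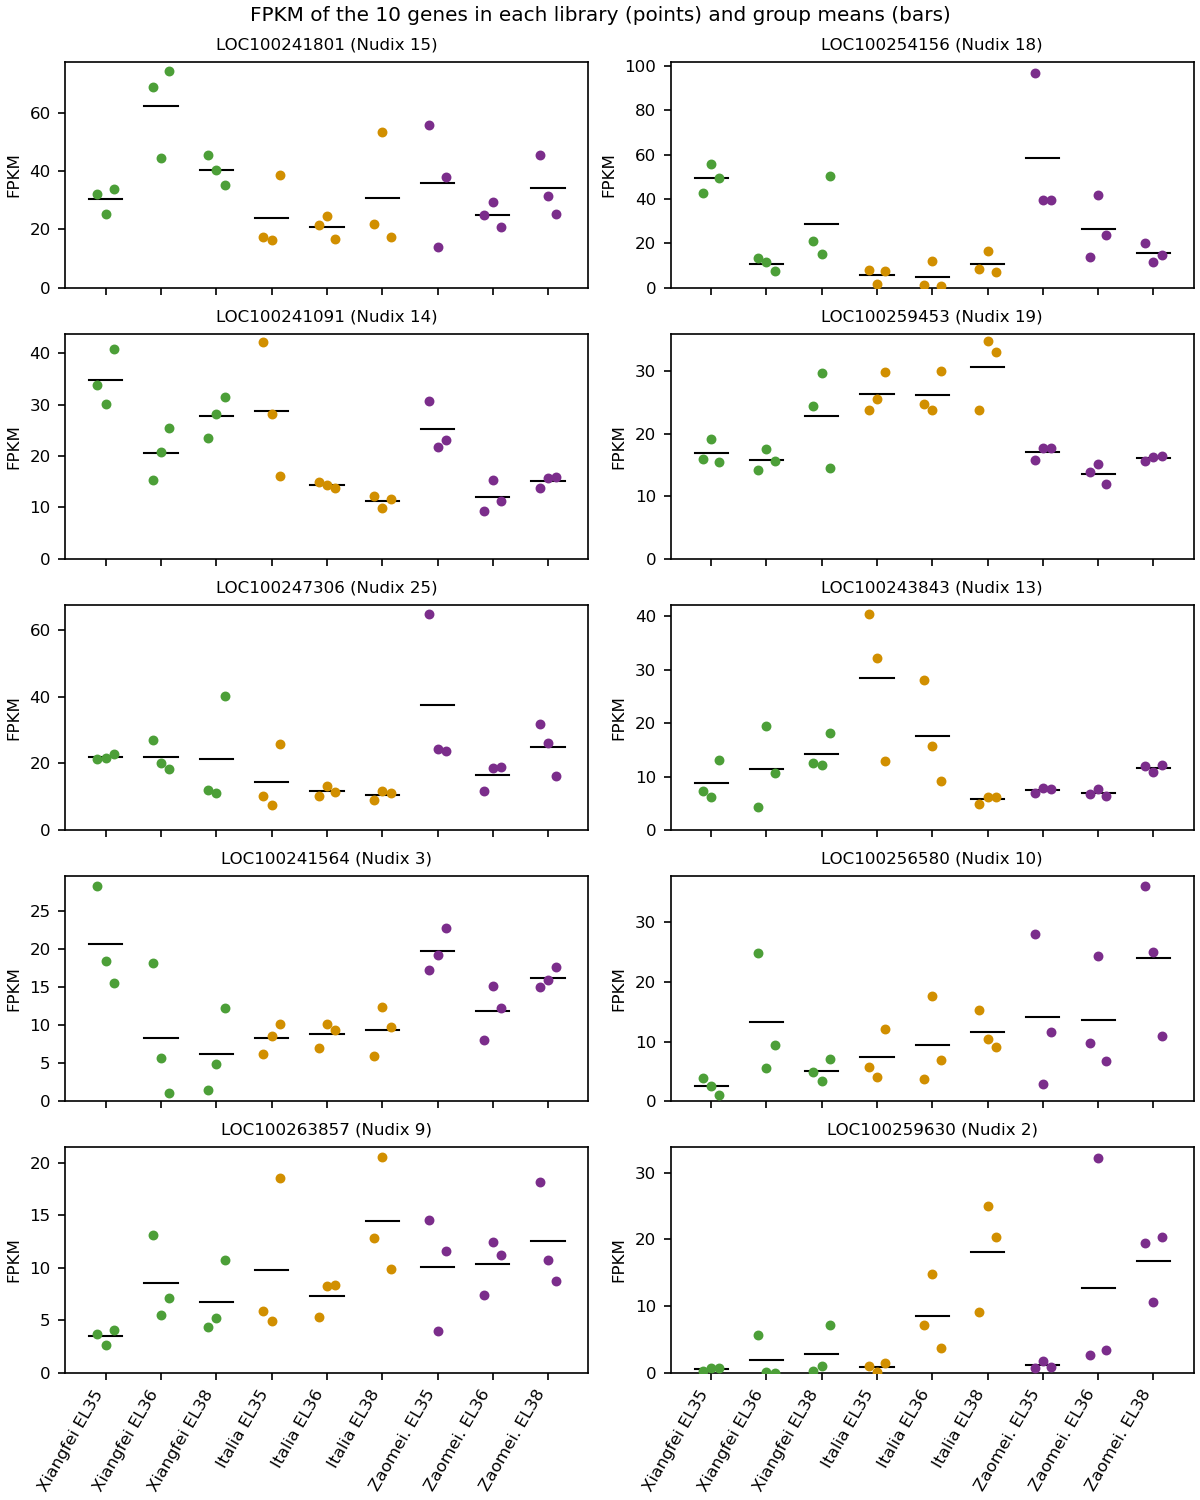
FPKM of each of the 10 genes in the 27 libraries, with 1 panel per gene, the 9 groups on the x axis, points for the 3 replicates and a bar for their mean. LOC100254156 is at 16.6 FPKM or less in every Italia library, and LOC100259630 is at 1.70 FPKM or less in every library of EL35.

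Of the 10 genes, 7 were called between cultivars and 2 between stages. Tested with edgeR over all 27 libraries, 7 of the 10 differed between cultivars at an adjusted p of at most 0.05, where 28.9% of the 21152 genes tested did. The 7 were LOC100254156 (adjusted p = 0.000745), LOC100241091 (0.00133), LOC100259453 (0.00215), LOC100247306 (0.00298), LOC100241801 (0.00305), LOC100256580 (0.0322) and LOC100259630 (0.0372). Stage changed 2 of the 10, LOC100241091 (adjusted p = 0.0163) and LOC100259630 (0.0240), where it changed 11.7% of all genes tested. LOC100259630 was among the 10 through its levels in later Italia and Zaomeiguixiang berries, so its calls are a description. The stage response differed between cultivars for 0 of the 10, where 0.662% of all genes were called. At an unadjusted p under 0.05 it did so for 2, and DESeq2 called 1 (6.01% of all genes it tested) and limma 0 (1.66%). Without the 3 libraries high in seed markers the counts were 8 for cultivar and 1 for stage (35.3% and 11.1% of all genes), and without the 3 libraries low in long genes they were 6 and 2 (19.5% and 7.68%). With library totals alone 5 were called for cultivar (23.2% of all genes), and LOC100241801 (adjusted p = 0.0889) and LOC100259630 (0.0573) were not. The stage call of LOC100241091 was lost without Italia EL35 replicate 1 (adjusted p = 0.0658) and that of LOC100259630 in 4 single removals (0.0535 to 0.0582) and without the 3 libraries high in seed markers (0.0920) or 2 of them (0.0571, leaving out Xiangfei EL38 replicate 3 and Italia EL35 replicate 3). Of the cultivar calls, that of LOC100256580 was lost in 8 removals (adjusted p of 0.0528 to 0.107) and that of LOC100259630 in 14 (0.0502 to 0.0777). Single removals also added calls. For stage these were LOC100254156 without Italia EL36 replicate 2 (adjusted p = 0.00189) and LOC100241564 without Xiangfei EL36 replicate 1 (0.0427). LOC100256580 was added without Zaomeiguixiang EL35 replicate 1 (0.0392) and LOC100263857 without Italia EL35 replicate 3 (0.0427). For cultivar LOC100243843 was added in 5 removals (0.0140 to 0.0481). The differences between these shares and those of all genes were not tested.

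**Figure D4:**
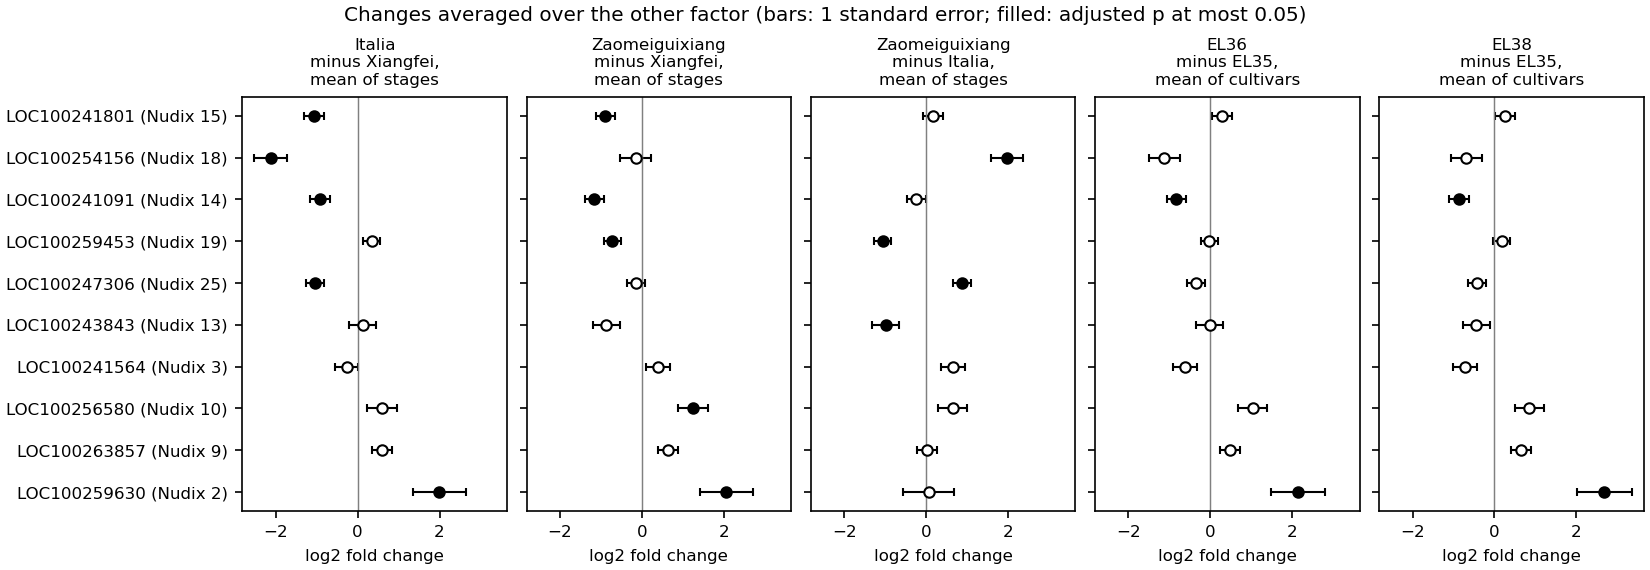
Log2 fold changes of the 10 genes from edgeR on rounded expected counts, for 3 cultivar comparisons averaged over the stages and for EL36 and EL38 against EL35 averaged over the cultivars. Bars are 1 standard error and filled points have an adjusted p of at most 0.05, from -2.13 for LOC100254156 in Italia against Xiangfei to 2.69 for LOC100259630 at EL38 against EL35.

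Averaged over the stages, 5 of the 10 genes differed between Italia and Xiangfei (1 higher and 4 lower in Italia, beside 16.1% of all genes, 6.15% higher and 10.0% lower). Zaomeiguixiang differed from Xiangfei in 5 (2 higher, 3 lower, beside 16.0% of all genes, 5.93% higher and 10.1% lower) and from Italia in 4 (2 higher, 2 lower, beside 15.5% of all genes, 8.56% higher and 6.97% lower). The median log2 fold change of the 10 was -0.07, -0.15 and 0.12 in these comparisons, beside -0.01, 0.06 and 0.04 over all genes tested. The comparisons share their samples pairwise and are given side by side. Berry sugar also differed between the cultivars at each stage, and its part in these differences was not tested. Fold changes are relative to TMM scaling, which trims the most extreme genes when it scales libraries. With library totals alone the median of all genes moved to 0.38 in Zaomeiguixiang against Xiangfei, 0.20 in Zaomeiguixiang against Italia and 0.15 in Italia against Xiangfei, and the 10 genes had 9 calls in place of 14 (12.8% of all tests in place of 15.9%). All genes higher and lower were then 1488 and 867 in place of 1254 and 2139 for Zaomeiguixiang against Xiangfei, 1911 and 923 in place of 1811 and 1474 for Zaomeiguixiang against Italia, and 1467 and 1493 in place of 1300 and 2115 for Italia against Xiangfei. In bulk berry RNA, fewer cells of a type and less RNA per cell cannot be told apart.

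LOC100241801 carries the annotation Nudix hydrolase 15, whose Arabidopsis counterpart is a mitochondrial coenzyme A diphosphatase, and the file flags its predicted protein as of low quality. It was higher in Xiangfei. Xiangfei libraries had 32.2, 25.1 and 33.7 FPKM at EL35, 68.6, 44.3 and 74.3 at EL36, and 45.6, 40.4 and 35.3 at EL38. Italia libraries had 17.3, 16.2 and 38.5 FPKM at EL35, 21.3, 24.5 and 16.8 at EL36, and 21.9, 53.3 and 17.5 at EL38. Those of Zaomeiguixiang had 55.8, 14.1 and 37.96 FPKM at EL35, 24.8, 29.3 and 20.8 at EL36, and 45.4, 31.6 and 25.3 at EL38. The 3 Xiangfei libraries of EL36 lay above all 6 libraries of the other two cultivars at that stage, while the groups overlapped at EL35 and EL38. Averaged over stages Italia was 2.09-fold below Xiangfei (log2 fold change -1.06, SE 0.24, adjusted p = 0.00392) and Zaomeiguixiang 1.85-fold below it (log2 fold change -0.89, SE 0.24, adjusted p = 0.0148). At EL36 alone, the difference was -1.82 on the log2 scale for Italia (adjusted p = 0.0167, 5.12% of all genes called) and -1.78 for Zaomeiguixiang (adjusted p = 0.0261, 2.63% called).

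The transcript of LOC100241801 is short, at 944 bases, and its level fell where long genes stood high (Pearson r = -0.67 with the length balance over 27 libraries, of which the highest for this gene, Xiangfei EL36 replicate 3, has the lowest balance). The balance was -1.52 to 0.48 in Xiangfei, -0.75 to 0.59 in Italia and -1.13 to 0.56 in Zaomeiguixiang, and its part in the difference was not tested. Without the 3 libraries low in long genes, the averaged log2 differences were -0.85, adjusted p = 0.0213 for Italia and -0.82, adjusted p = 0.0455 for Zaomeiguixiang. Those at EL36 were -1.45, adjusted p = 0.0738 and -1.43, adjusted p = 0.131. The EL36 call for Italia was also lost without Xiangfei EL36 replicate 3 (-1.45, adjusted p = 0.092), Italia EL36 replicate 2 (-1.87, adjusted p = 0.0505) or Italia EL36 replicate 3 (-1.64, adjusted p = 0.117). That for Zaomeiguixiang was lost without Xiangfei EL36 replicate 3 (-1.43, adjusted p = 0.16) or without any 1 Zaomeiguixiang library of EL36 (adjusted p of 0.0763 to 0.145). With library totals alone, Zaomeiguixiang against Xiangfei shrank to -0.42, adjusted p = 0.293, and Italia against Xiangfei to -0.76, adjusted p = 0.057. In the RefSeq gene order LOC100241801 lies next to LOC100262298, the other Nudix 15 gene, and reads that match both were divided between them by an estimate, so the level of either is uncertain to that extent. Their sequences were not compared here.

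LOC100254156 is annotated as the mitochondrial Nudix hydrolase 18, and its orthology term is a diphosphoinositol-polyphosphate diphosphatase, an enzyme that removes phosphate from highly phosphorylated inositols. It had the largest cultivar difference among the 5 genes with the highest means, with low levels in Italia. Xiangfei libraries had 42.9, 55.6 and 49.4 FPKM at EL35, 13.5, 11.3 and 7.57 at EL36, and 20.8, 15.1 and 50.3 at EL38. Italia had 8.08, 1.72 and 7.49 FPKM at EL35, 1.33, 12.0 and 0.88 at EL36, and 8.41, 16.6 and 7.01 at EL38. Zaomeiguixiang had 96.9, 39.4 and 39.3 FPKM at EL35, 13.9, 41.8 and 23.9 at EL36, and 20.3, 11.5 and 14.5 at EL38. All 9 Italia libraries were at 16.6 FPKM or less and their median was 7.49, against medians of 20.8 in Xiangfei and 23.9 in Zaomeiguixiang. At EL35 Italia did not overlap the other two cultivars, with 8.08 FPKM at most against 39.3 or more.

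Averaged over stages LOC100254156 was 4.37-fold lower in Italia than in Xiangfei (log2 fold change -2.13, SE 0.39, adjusted p = 0.000587) and 3.94-fold higher in Zaomeiguixiang than in Italia (log2 fold change 1.98, SE 0.39, adjusted p = 0.0013). These were called under every single removal of a library and under all the other settings tried, the study's own thresholds excepted for Zaomeiguixiang against Italia. Zaomeiguixiang and Xiangfei differed by -0.15 on the log2 scale (adjusted p = 0.84). At EL35 alone the log2 difference was -3.25 for Italia against Xiangfei (adjusted p = 0.0096, 3.44% of all genes called) and 3.25 for Zaomeiguixiang against Italia (adjusted p = 0.0116, 2.93% called). Without Italia EL35 replicate 2, the lowest of its group, these were -2.84, adjusted p = 0.0532, and 2.85, adjusted p = 0.0652. The second was 2.81, adjusted p = 0.0535 without Zaomeiguixiang EL35 replicate 1, the library with 96.9 FPKM. The stage test gave an adjusted p of 0.111, with EL36 at -1.13 against EL35 on the log2 scale, and without Italia EL36 replicate 2 it gave 0.00189. This fall to EL36, averaged over cultivars, was called by DESeq2 (-1.09, adjusted p = 0.0309) and by limma on log2(FPKM + 1) (-1.28, adjusted p = 0.0216).

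LOC100241091, the chloroplastic Nudix hydrolase 14, belongs to the ADP-sugar diphosphatases, which in Arabidopsis cleave the ADP-glucose used for starch. It fell after EL35 and was lower in Italia and Zaomeiguixiang than in Xiangfei. Xiangfei libraries had 33.7, 30.1 and 40.7 FPKM at EL35, 15.4, 20.8 and 25.5 at EL36, and 23.6, 28.3 and 31.5 at EL38. Italia had 42.2, 28.3 and 16.0 FPKM at EL35, 15.0, 14.4 and 13.8 at EL36, and 12.3, 9.87 and 11.6 at EL38. Zaomeiguixiang had 30.7, 21.8 and 23.1 FPKM at EL35, 9.27, 15.3 and 11.2 at EL36, and 13.7, 15.8 and 15.8 at EL38. In Zaomeiguixiang all 3 libraries of EL35 lay above the 6 later ones, in Italia likewise, and in Xiangfei EL38 overlapped EL35. At EL38 the 3 Xiangfei libraries lay above the 6 of the other cultivars.

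Averaged over cultivars LOC100241091 fell by 0.83 on the log2 scale from EL35 to EL36 (SE 0.24, adjusted p = 0.0253) and by 0.87 from EL35 to EL38 (SE 0.24, adjusted p = 0.0193), where 10.8% of all genes (4.57% higher, 6.24% lower) and 10.1% (3.77% higher, 6.28% lower) were called. Italia was 1.90-fold below Xiangfei (log2 fold change -0.92, SE 0.24, adjusted p = 0.00911) and Zaomeiguixiang 2.23-fold below it (log2 fold change -1.16, SE 0.24, adjusted p = 0.00202). At EL38 the log2 difference was -1.65 for Italia (adjusted p = 0.0196, 6.07% of all genes called) and -1.43 for Zaomeiguixiang (adjusted p = 0.0403, 6.11% called). Within Italia, EL38 was -1.53 against EL35 (adjusted p = 0.0454, 2.95% called), which fell short in 19 of the 27 single removals (adjusted p of 0.0505 to 0.293). The fall to EL38 rested on Italia EL35 replicate 1, the highest library (-0.71, adjusted p = 0.0613 without it). The fall to EL36 was lost without it (-0.67, adjusted p = 0.0728), and without Xiangfei EL35 replicate 3 (-0.75, adjusted p = 0.0588), Italia EL36 replicate 3 (-0.80, adjusted p = 0.0502) or Zaomeiguixiang EL36 replicate 1 (-0.80, adjusted p = 0.0548). At EL38 the call for Italia against Xiangfei was lost in 4 removals (adjusted p of 0.0564 to 0.112) and that for Zaomeiguixiang in 9 (0.0501 to 0.143). The second was also not called with library totals alone (-0.90, adjusted p = 0.128) or by limma on log2(FPKM + 1) (-0.83, adjusted p = 0.0769). Without the 3 libraries low in long genes neither was called (-1.62, adjusted p = 0.0508, and -1.39, adjusted p = 0.111).

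Green tissue markers moved with this gene. The summed FPKM of 21 genes for chlorophyll a-b binding proteins and the small subunit of Rubisco correlated with LOC100241091 at r = 0.82 over the 27 libraries on the log2(FPKM + 1) scale, and 15 to 21 of them were above 0 in each library. The sum was 643 to 5787 FPKM in Xiangfei, 319.6 to 4906 in Italia and 647 to 1717 in Zaomeiguixiang, and by stage 1085 to 4906 at EL35, 643 to 3486 at EL36 and 319.6 to 5787 at EL38. Of the 19 that passed the filter on low counts, 12 were lower in Italia than in Xiangfei (10.0% of all genes), 14 were lower and 1 higher in Zaomeiguixiang than in Xiangfei (10.1% and 5.93%), and 7 were lower and 2 higher at EL38 than at EL35 (6.28% and 3.77%). Their part in the differences of LOC100241091 was not tested.

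**Figure D5:**
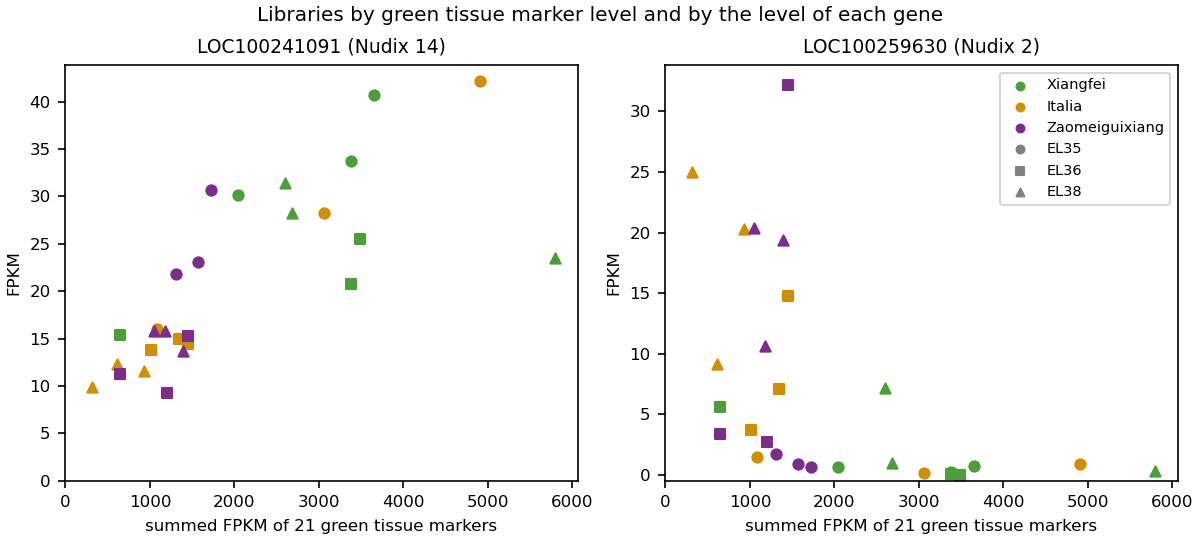
FPKM of LOC100241091 (left) and LOC100259630 (right) in each of 27 libraries against the summed FPKM of 21 green tissue markers, with colour for the cultivar and shape for the stage. LOC100241091 is highest in libraries with many green transcripts (r = 0.82) and LOC100259630 is at or below 7.14 FPKM in the 10 libraries with 2041 FPKM of markers or more.

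LOC100259453 is annotated as the chloroplastic Nudix hydrolase 19, an NADPH diphosphatase in Arabidopsis. It had the smallest range of the 10 as a fold, and its mean was highest in Italia. Xiangfei libraries had 16.0, 19.2 and 15.4 FPKM at EL35, 14.1, 17.5 and 15.6 at EL36, and 24.4, 29.7 and 14.5 at EL38. Italia had 23.8, 25.5 and 29.9 FPKM at EL35, 24.8, 23.7 and 29.97 at EL36, and 23.8, 34.9 and 33.1 at EL38. Zaomeiguixiang had 15.8, 17.7 and 17.7 FPKM at EL35, 13.9, 15.1 and 11.9 at EL36, and 15.6, 16.3 and 16.5 at EL38. All 9 Italia libraries lay above all 9 of Zaomeiguixiang (23.7 to 34.9 against 11.9 to 17.7 FPKM), and Xiangfei overlapped both with 14.1 to 29.7. Averaged over stages, Italia against Xiangfei was not called by edgeR with TMM. With library totals alone Italia was called higher (0.64, adjusted p = 0.00784), as by limma on log2(FPKM + 1) (0.58, adjusted p = 0.00674). Zaomeiguixiang was 2.09-fold below Italia (log2 fold change -1.06, SE 0.21, adjusted p = 0.00131), a call kept in every single removal. It was also below Xiangfei (log2 fold change -0.72, SE 0.21, adjusted p = 0.0215), but with library totals alone that difference was -0.26, adjusted p = 0.255, and without the 3 libraries low in long genes -0.59, adjusted p = 0.133. It was lost as well without Xiangfei EL35 replicate 2 (-0.64, adjusted p = 0.053) or Xiangfei EL38 replicate 2 (-0.61, adjusted p = 0.0602). The stage test gave an adjusted p of 0.817.

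LOC100247306, Nudix hydrolase 25, belongs to the enzymes that split dinucleoside polyphosphates such as diadenosine tetraphosphate. It was lowest in Italia. Xiangfei libraries had 21.2, 21.7 and 22.9 FPKM at EL35, 27.0, 19.9 and 18.4 at EL36, and 12.0, 11.2 and 40.3 at EL38. Italia had 10.2, 7.47 and 25.7 FPKM at EL35, 10.1, 13.3 and 11.4 at EL36, and 9.02, 11.6 and 11.2 at EL38. Zaomeiguixiang had 64.7, 24.2 and 23.6 FPKM at EL35, 11.8, 18.5 and 18.8 at EL36, and 31.9, 26.2 and 16.1 at EL38. Of the Italia libraries, 8 were at 13.3 FPKM or less and the ninth, EL35 replicate 3, at 25.7, while the medians of Xiangfei and Zaomeiguixiang were 21.2 and 23.6. Italia was 2.05-fold below Xiangfei (log2 fold change -1.03, SE 0.22, adjusted p = 0.00235), and Zaomeiguixiang 1.85-fold above Italia (log2 fold change 0.88, SE 0.22, adjusted p = 0.00847). Both were called in every single removal and without either set of 3 libraries, and the first was not called with library totals alone (-0.83, adjusted p = 0.057) or by limma on log2(FPKM + 1) (-0.76, adjusted p = 0.0501). The libraries of LOC100247306 and LOC100254156 rose and fell together (r = 0.69 over 27 libraries), both highest in Zaomeiguixiang EL35 replicate 1, which is among the 3 libraries low in long genes.

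LOC100243843 is annotated as the mitochondrial Nudix hydrolase 13, which in Arabidopsis cleaves diadenosine polyphosphates in mitochondria. Its highest levels were in young Italia berries. Italia libraries had 40.3, 32.2 and 12.9 FPKM at EL35, 28.1, 15.7 and 9.07 at EL36, and 4.93, 6.18 and 6.22 at EL38. Zaomeiguixiang libraries had 6.96, 7.80 and 7.68 FPKM at EL35, 6.82, 7.74 and 6.27 at EL36, and 11.9, 10.8 and 12.1 at EL38. The group means in Xiangfei were 8.87 ± 3.72 FPKM at EL35, 11.5 ± 7.64 at EL36 and 14.2 ± 3.38 at EL38 (SD, n = 3). In Italia the 3 libraries of EL38 lay below all earlier ones, and in Zaomeiguixiang the 3 of EL38 lay above all earlier ones. The fall in Italia from EL35 to EL38 was 5.75-fold (log2 fold change -2.52, SE 0.60, adjusted p = 0.0233), while the change in Zaomeiguixiang was 0.41 on the log2 scale (adjusted p = 0.879). The test of a stage response that differs between cultivars gave an adjusted p of 0.139 by edgeR and of 0.00637 by DESeq2, and from 0.00637 to 0.285 over the settings tried. The fall in Italia was lost when 1 library of Italia EL35 or EL38 other than EL35 replicate 3 was left out (adjusted p of 0.0599 to 0.118).

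Averaged over stages, LOC100243843 was lower in Zaomeiguixiang than in Italia (log2 fold change -0.99, SE 0.33, adjusted p = 0.0455), which fell short in 16 of 27 single removals, at most at an adjusted p of 0.139 without Italia EL36 replicate 1, and with library totals alone (-0.75, adjusted p = 0.0742). Its correlation with the summed green tissue markers was r = 0.59 over 27 libraries. In Italia those markers summed to 1085 to 4906 FPKM at EL35 and 319.6 to 929 at EL38. Their part in the fall was not tested.

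LOC100256580 and LOC100259630 are annotated as Nudix hydrolases 10 and 2, which in Arabidopsis hydrolyse ADP-ribose and NADH. LOC100259630 had the widest range of the 10 group means as a fold. By edgeR over all 27 libraries, it alone was called higher after EL35 averaged over cultivars. Other settings also called LOC100256580 higher at EL36, DESeq2 (1.07, adjusted p = 0.0302) and edgeR without the 3 libraries low in long genes (1.32, adjusted p = 0.0412). LOC100263857 was called higher at EL38 without the 3 libraries high in seed markers (0.82, adjusted p = 0.0466). Xiangfei libraries had 0.21, 0.67 and 0.75 FPKM at EL35, 5.56, 0.06 and 0 at EL36, and 0.30, 0.98 and 7.14 at EL38. Italia had 0.93, 0.15 and 1.43 FPKM at EL35, 7.10, 14.8 and 3.69 at EL36, and 9.14, 25.0 and 20.3 at EL38. Zaomeiguixiang had 0.66, 1.70 and 0.89 FPKM at EL35, 2.68, 32.2 and 3.36 at EL36, and 19.4, 10.6 and 20.4 at EL38. At EL35 all 9 libraries were at 1.70 FPKM or less. All 6 libraries of Italia and Zaomeiguixiang at EL38 were at 9.14 or more, and above every EL35 library. In Xiangfei it stayed at or below 0.98 FPKM in 7 of 9 libraries. The other two were EL36 replicate 1 at 5.56 FPKM, the Xiangfei library with the fewest green transcripts, and EL38 replicate 3 at 7.14 FPKM, the Xiangfei library with seed transcripts.

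Averaged over cultivars LOC100259630 rose 4.40-fold from EL35 to EL36 (log2 fold change 2.14, SE 0.65, adjusted p = 0.0373) and 6.44-fold from EL35 to EL38 (log2 fold change 2.69, SE 0.67, adjusted p = 0.0108). Averaged over stages it was 3.99-fold higher in Italia (log2 fold change 2.00, SE 0.65, adjusted p = 0.0377) and 4.18-fold higher in Zaomeiguixiang than in Xiangfei (log2 fold change 2.06, SE 0.65, adjusted p = 0.033). Within single cultivars the rise to EL38 was 1.75 (adjusted p = 0.454), 3.38 (0.122) and 2.93 (0.251) on the log2 scale in Xiangfei, Italia and Zaomeiguixiang by edgeR, none called. DESeq2 called it in Italia (3.39, adjusted p = 0.021), and limma on log2(FPKM + 1) in Italia (3.34, adjusted p = 0.0163) and Zaomeiguixiang (3.08, adjusted p = 0.0255). The edgeR test of a different response between cultivars gave an adjusted p of 0.956. The rise to EL38 was called in every single removal but not without the 3 libraries high in seed markers (2.19, adjusted p = 0.0606). The rise to EL36 was lost in 10 removals (adjusted p of 0.0504 to 0.352) and was 0.94, adjusted p = 0.352 without Xiangfei EL36 replicate 1, and 1.56, adjusted p = 0.126 without Zaomeiguixiang EL36 replicate 2. The differences from Xiangfei were lost in 11 removals for Italia (adjusted p of 0.0510 to 0.0760) and 8 for Zaomeiguixiang (0.0513 to 0.124), and without the 3 libraries low in long genes (1.64, adjusted p = 0.0817, and 1.80, adjusted p = 0.0794). With library totals alone that for Italia was 2.02, adjusted p = 0.0636. Its level ran against the green tissue markers (r = -0.68 over 27 libraries), and their part in these differences was not tested.

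LOC100256580 was called between cultivars and, in Xiangfei, between EL35 and EL36. Its group means were 2.54 ± 1.45, 13.3 ± 10.2 and 5.09 ± 1.89 FPKM at EL35, EL36 and EL38 for Xiangfei berries, 7.35 ± 4.22, 9.46 ± 7.32 and 11.6 ± 3.21 in Italia, and 14.2 ± 12.8, 13.6 ± 9.39 and 24.0 ± 12.5 in Zaomeiguixiang (SD, n = 3). The spread was wide in Zaomeiguixiang EL35, where 1 library was at 28.1 FPKM and another at 2.89. Zaomeiguixiang was 2.38-fold above Xiangfei (log2 fold change 1.25, SE 0.36, adjusted p = 0.0218). That was 0.98, adjusted p = 0.137 without the 3 libraries low in long genes, and 0.94, adjusted p = 0.071 without Zaomeiguixiang EL35 replicate 1, which is 1 of them. It was lost in 5 single removals in all (adjusted p of 0.0502 to 0.0710). Xiangfei rose from 3.95, 2.60 and 1.06 FPKM at EL35 to 24.8, 5.62 and 9.44 at EL36 (log2 fold change 2.56, SE 0.66, adjusted p = 0.0338, 3.44% of all genes called), with no overlap. This call was lost without any 1 library of Xiangfei EL35 or without Xiangfei EL36 replicate 1 or 3 (adjusted p of 0.0754 to 0.128).

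LOC100241564 and LOC100263857, annotated as Nudix hydrolases 3 and 9, had no call by edgeR over all 27 libraries in any averaged or pairwise comparison, and none by limma. DESeq2 made 5 such calls. It called LOC100241564 lower at EL38 than at EL35 in Xiangfei (-1.72 on the log2 scale, adjusted p = 0.0185). It called LOC100263857 higher at EL36 than at EL35 in Xiangfei (1.54, adjusted p = 0.00934), higher in Italia and Zaomeiguixiang than in Xiangfei at EL35 (1.35, adjusted p = 0.0309, and 1.42, adjusted p = 0.0417), and higher in Zaomeiguixiang than in Xiangfei averaged over stages (0.65, adjusted p = 0.0484). Calls by edgeR also appeared when libraries were left out. LOC100263857 was called without the 3 libraries high in seed markers, at EL38 against EL35 averaged over cultivars (0.82, adjusted p = 0.0466) and at EL36 against EL35 in Xiangfei (1.46, adjusted p = 0.0394). LOC100241564 had 5 calls without the 3 libraries low in long genes, the one with the lowest adjusted p being Zaomeiguixiang above Italia averaged over stages (0.71, adjusted p = 0.0117). LOC100241564 had group means of 20.7 ± 6.68, 8.31 ± 8.82 and 6.21 ± 5.52 FPKM along the stages for Xiangfei berries, 8.30 ± 1.99, 8.84 ± 1.61 and 9.36 ± 3.25 in Italia, and 19.7 ± 2.81, 11.8 ± 3.51 and 16.1 ± 1.32 in Zaomeiguixiang (SD, n = 3). Its cultivar test gave an adjusted p of 0.175, and of 0.0165 without the 3 libraries low in long genes. At 2800 bases it is the longest transcript of the 10, its 2 lowest levels were in libraries of that set, Xiangfei EL36 replicate 3 (1.12 FPKM) and Xiangfei EL38 replicate 1, and its r with the length balance was 0.58. The part of the length balance was not tested. LOC100263857 had group means from 3.43 ± 0.717 FPKM in Xiangfei EL35 to 14.4 ± 5.53 in Italia EL38 (SD, n = 3). Its cultivar test gave an adjusted p of 0.0872 and its stage test 0.174.

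Over all comparisons of stages within 1 cultivar, 3 of 90 tests of the 10 genes were called (1.27% over all genes), and over all comparisons of cultivars at 1 stage 6 of 90 (3.47% over all genes). DESeq2 called 9 and 20 (5.30% and 9.16% over all genes). Without the 3 libraries high in seed markers edgeR called 5 and 12 (1.97% and 5.87% over all genes), and without the 3 libraries low in long genes 2 and 3 (0.577% and 1.89%). EL38 and EL36 averaged over cultivars did not separate any of the 10 (0 called by edgeR, DESeq2 and limma, and 0 with an unadjusted p under 0.05 by edgeR), where 0.00473% of all genes, a single gene, were called.

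The genes most alike in level over the 27 libraries were looked up for each of the 10 by Pearson r of log2(FPKM + 1), as a description, since libraries share depth, length balance and stage. LOC100241091 was most like 2 genes for chlorophyll a-b binding proteins of LHCII type 1, LOC100252004 (r = 0.93) and LOC100241745 (0.91), and LOC100248237 (0.90). LOC100241564 was most like LOC100258488 (r = 0.97), an alanine-tRNA ligase gene (LOC100249161, 0.95) and a cullin-3A-like gene (LOC100254227, 0.94), all with transcripts above 2500 bases. LOC100263857 was most like genes for the translation factor eIF5A (LOC100267006, r = 0.92) and the ribosomal protein L36-3 (LOC100262717, 0.92), and LOC100264042 (0.92). LOC100256580 was most like LOC100263310 (r = 0.87), a subunit gene of the mitochondrial cytochrome b-c1 complex (LOC100253774, 0.86) and the actin-depolymerizing factor ADF (0.86).

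LOC100254156 was most like MLO15 (r = 0.86), of the MLO family known for mildew susceptibility, LOC100250684 (0.85) and LOC100260289 (0.84). LOC100247306 was most like LOC100265992 (r = 0.90), the zinc finger gene CONSTANS-LIKE 13 (LOC100259713, 0.90) and a resistance gene annotated RGA2-like (LOC104878030, 0.89). LOC100241801 was most like LOC100245319 (r = 0.86), LOC100854119 (0.83) and a subunit gene of mitochondrial NADH dehydrogenase (LOC100258272, 0.81), with transcripts of 518 to 641 bases. LOC100243843 was most like LOC100257917 (r = 0.85), a BTB/POZ domain gene (LOC100267382, 0.79) and the gene for Rubisco activase (LOC100256315, 0.77). LOC100259453 was most like a gene for the catalytic subunit of the vacuolar proton ATPase (LOC100266369, r = 0.87), LOC100262339 (0.82) and LOC100854752 (0.82), the first at a mean of only 1.21 FPKM. LOC100259630 was most like GAMETE EXPRESSED 1 (LOC100247755, r = 0.83), serine hydroxymethyltransferase 7 (LOC100267713, 0.83) and a clustered mitochondria homolog (LOC100254354, 0.83). Among the 45 pairs of the 10 genes, r was highest for LOC100263857 with LOC100256580 (0.82) and lowest for LOC100259630 with LOC100241091 (-0.68).

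Of the 10 other Nudix hydrolases, 3 were called in an averaged comparison, 1 of them higher in Italia (6.15% of all genes) and 2 higher and 1 lower in Zaomeiguixiang against Xiangfei (5.93% and 10.1% of all genes, median log2 fold changes of the 10 were 0.34 and -0.20). LOC100257937, the Nudix 2-like gene that neighbours LOC100259630 in the RefSeq order, had medians of 1.26 FPKM in Xiangfei, 5.40 in Italia and 14.0 in Zaomeiguixiang. It was higher in Zaomeiguixiang (log2 fold change 3.11, SE 0.58, adjusted p = 0.000857) and in Italia (log2 fold change 1.83, SE 0.55, adjusted p = 0.0248) than in Xiangfei, as its neighbour was, while reads that match both were divided between them by an estimate. LOC100242429, a Nudix 18-like gene, was higher in Zaomeiguixiang than in Xiangfei (log2 fold change 2.91, SE 0.94, adjusted p = 0.0359) and Italia (log2 fold change 2.83, SE 0.93, adjusted p = 0.041), and its highest library, Zaomeiguixiang EL38 replicate 1, was at 31.1 FPKM. LOC100264581, annotated as Nudix 8, was listed at 0 in 16 of 27 libraries and called lower at EL36 than at EL35 (adjusted p = 0.034) and in Zaomeiguixiang than in Xiangfei (adjusted p = 0.0432), so no fold is given. LOC100250719, the gene annotated as Nudix hydrolase 1, had a mean of 0.99 FPKM, was listed at 0 in 7 libraries, and was not called in any averaged comparison.

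Enzymes with a Nudix fold under other names were few. Of 4 such genes, 2 fell from EL35 to EL36 and 1 from EL35 to EL38 (6.24% and 6.28% of all genes), and 1 was higher in Zaomeiguixiang than in Italia (8.56%). The isopentenyl diphosphate isomerase gene LOC100241072, which interconverts the building blocks of all terpenes, averaged 192 FPKM, above every Nudix hydrolase. It fell by 1.48 on the log2 scale from EL35 to EL38 (SE 0.26, adjusted p = 0.000598), from group means of 247, 214 and 477 FPKM to 80.6, 96.1 and 188 in Xiangfei, Italia and Zaomeiguixiang respectively. LOC100261950, for a subunit of the pre-mRNA cleavage factor Im, fell by 0.53 from EL35 to EL36 (SE 0.17, adjusted p = 0.0444). Of 12 enzymes that make or reduce prenyl diphosphates, the isomerase included, 4 were lower and 1 higher in Italia than in Xiangfei (10.0% and 6.15% of all genes), and 4 were lower in Zaomeiguixiang than in Xiangfei (10.1% of all genes, median log2 fold changes -0.24 and -0.59, beside -0.01 and 0.06 over all genes). The lower ones included 2 genes for the small subunit of the heterodimeric geranylgeranyl diphosphate synthase, LOC100855133 (log2 fold changes -1.19 in Italia and -1.63 in Zaomeiguixiang, adjusted p = 0.0190 and 0.00265) and LOC104878767 (-2.23 and -3.01, adjusted p = 0.00351 and 0.000399). Another gene annotated as this small subunit, LOC100257234, was the 1 higher in Italia (1.15, adjusted p = 0.0300). In Zaomeiguixiang it was lower than in Xiangfei (-2.25, adjusted p = 0.000271).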

How the data were processed

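RNA from berries in 27 samples, 3 replicates for each of 9 combinations of cultivar and stage, was enriched for polyadenylated transcripts and sequenced on an Illumina platform. The authors filtered the reads, detected new transcripts by HISAT2 mapping to the grapevine genome (V2), mapped clean reads to the merged transcripts with Bowtie2 and estimated expression with RSEM, as the paper and the submitters' processing notes give it. The deposited expected counts are not normalized, the deposited FPKM values are scaled by the authors to transcript length and assigned fragments and rounded to 2 decimals, and each file also holds the length, an other quantity deposited by the authors in bases. Genes not listed were taken as 0, and strand use in counting is not given in the sources used here.

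Expected counts were rounded and tested with edgeR 4.0.16 in R 4.3.3 (quasi-likelihood test, TMM, filterByExpr) in 1 fit of 27 samples with 9 group means, with Benjamini-Hochberg adjustment over 21152 genes. All 20 Nudix genes passed the filter. The authors state DESeq2 with an adjusted p of at most 0.001 and a log2 ratio of at least 1, and DESeq2 1.42.0, these thresholds, limma 3.58.1 on log2(FPKM + 1) with a mean FPKM of at least 0.1, other scalings, no filter, the replicate number as a block, 6 samples per fit, and left-out libraries were alternatives. Standard errors were obtained by dividing each absolute log2 fold change by the root of its F value. The script was tested on simulated data with known changes. Figures and joins used Python 3.11.15, pandas 2.3.3, numpy 2.4.6 and matplotlib 3.10.9. Library totals were 16908559 to 27186952 expected counts per sample, and 3 counts were taken as the detection floor, which covers counting error only.

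Genes were named by rule: the 10 members, the 2 Nudix hydrolases next in rank, at most 5 other Nudix hydrolases called in an averaged comparison, at most 3 called genes of each list by mean FPKM, and the 3 genes most like each member with a mean FPKM of at least 1. LOC100257234 was added to these after its values were seen. Values per library are given for at most 6 members by smallest adjusted p, and those of LOC100243843 and of LOC100256580 in Xiangfei were added after their values were seen. The members, lists and tests were chosen with earlier results of these data known. Gene names match the RefSeq gene table for all 20. Its coordinates served only to order neighbouring genes and look for overlaps, because its assembly differs from that of the files.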

Additional observations from a re-analysis of the deposited data

Results flagged for a closer look

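The group means of LOC100243843 (Nudix 13) moved in opposite directions in 2 cultivars. Of these changes, edgeR over all 27 libraries called only the fall in Italia from EL35 to EL38, and no rise in Zaomeiguixiang. From EL35 to EL38 its mean FPKM changed by -22.7 in Italia and by 4.13 in Zaomeiguixiang, and from EL36 to EL38 by -11.8 in Italia and by 4.67 in Zaomeiguixiang. The stages did not overlap in any of these 4 comparisons. With 3 libraries in each group this is a description, and the share of all genes without overlap was not counted. The test of a different stage response across the 3 cultivars gave an adjusted p of 0.139 by edgeR and of 0.00637 by DESeq2, with a range of 0.00637 to 0.285 over the 36 settings tried. This pair of cultivars was not tested by itself. Groups of 3 replicates were not searched for single libraries that stand apart.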

How the results depend on the processing

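For the genes described here, no log2 fold change called by edgeR over all libraries changed sign under any setting tried. The median over all genes tested did change sign in Italia against Xiangfei, from below 0 with TMM to above 0 with library totals alone. Against 2 genes called for stage, 7 for cultivar and 0 for their interaction, 4 and 14 calls in averaged stage and cultivar comparisons, 3 within cultivars and 6 between cultivars at 1 stage, the settings gave the following. The share of all tests called in the same setting stands in parentheses. DESeq2 called 1 for interaction (6.01%), 9 within (5.30%) and 20 between cultivars (9.16%). limma called 6 within cultivars (2.46%). Library totals without TMM gave 9 averaged cultivar calls (12.8%). Without 2 of the 3 libraries with seed transcripts (Xiangfei EL38 replicate 3 and Italia EL35 replicate 3) there was 1 for stage (13.2%), 5 within (2.42%) and 15 between cultivars (6.60%), and without all 3 there was 1 (11.1%), 5 (1.97%) and 12 (5.87%). Without the 3 libraries low in long genes there were 3 between cultivars (1.89%). Fits to the 6 samples of the 2 groups compared lost 7 of the pairwise calls (adjusted p of 0.0568 to 0.191). They kept the 2 of LOC100254156 at EL35. They added EL38 against EL35 in Zaomeiguixiang for LOC100259630 (2.95, adjusted p = 0.0167) and LOC100254156 (-2.06, 0.0279). Zaomeiguixiang against Italia was added for LOC100259453 at EL36 (-1.28, 0.0269) and EL38 (-1.10, 0.0491). Shares of all genes were not counted for these fits. The study's own thresholds, an adjusted p of at most 0.001 and a log2 ratio of at least 1, left 0 for stage, 1 for cultivar, 0 averaged stage, 1 averaged cultivar, 0 within and 0 between cultivars. Of all 21152 genes tested they left 407 for stage and 1201 for cultivar. In the averaged comparisons they left 242, 317 and 0 for stages and 673, 452 and 542 for cultivars. Single comparisons kept at most 2 genes within a cultivar and 38 to 92 between cultivars at 1 stage. Stricter thresholds lower counts by construction, and for the rest the cause was not tested.

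Leaving out 1 library at a time, the ranges were 1 to 3 for stage, 5 to 8 for cultivar, 0 for interaction, 2 to 5 and 10 to 15 in averaged stage and cultivar comparisons, 1 to 5 within and 4 to 14 between cultivars. The highest count between cultivars came without Xiangfei EL36 replicate 1. Shares of all genes were not counted in these removals, so changes in all genes and in the 10 cannot be told apart. Of the 18 averaged calls, 10 held in all 27 removals: Italia against Xiangfei for LOC100241091, LOC100241801, LOC100247306 and LOC100254156, Zaomeiguixiang against Xiangfei for LOC100241091 and LOC100241801, Zaomeiguixiang against Italia for LOC100247306, LOC100254156 and LOC100259453, and the rise of LOC100259630 to EL38. That rise is a description, since levels in later berries brought the gene into the 10. It was not called without the 3 libraries high in seed markers (2.19, adjusted p = 0.0606).

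Replicate numbers did not pair the samples: deviations correlated at a mean of -0.0061 over 108 pairs with the same number and 0.0034 over 216 pairs with different numbers. With the replicate block the counts were 2, 6, 0, 3, 11, 2 and 5 in the order above, and the shares of all genes were not counted with it. Of the 30 genes named as most alike, 24 stayed with a pseudocount of 0.1 and 26 with a mean FPKM of at least 5. Depth limits the lowest values, since LOC100259630 had 0 to 898 expected counts per library.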
